A study of Solanum pimpinellifolium and Solanum chilense with 12 samples.

Results

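The 9 genes described here make or break down abscisic acid (ABA). Of them, 5 serve synthesis and 4 breakdown, and they were taken by gene ID from the 34725 genes of the deposited table. The synthesis genes are NCED1 (Solyc07g056570), NCED2 (Solyc08g016720), the zeaxanthin epoxidase gene (Solyc02g090890), FLACCA (Solyc07g066480) and the gene that the study calls xanthoxin dehydrogenase (Solyc12g056600). The breakdown genes are CYP707A1 (Solyc04g078900), CYP707A2 (Solyc08g005610), CYP707A3 (Solyc04g071150) and CYP707A4 (Solyc01g108210). Expression was measured by RNA-seq in styles with their stigmas, taken at 24 h either without pollination (UP) or after self-pollination (P). The plants were 2 wild tomatoes: S. pimpinellifolium LA1585, which is self-compatible (SC), and S. chilense LA0130, which is self-incompatible (SI). The 4 groups (SCUP, SCP, SIUP and SIP) held 3 libraries each, 12 in all, and reads of both species were aligned to the same cultivated tomato genome. The study calls the libraries biological replicates but does not give the number of plants behind each, so the p-values speak of the spread among these libraries alone.

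ABA is a plant hormone of seed dormancy, water stress and development that is cut from carotenoids. Zeaxanthin epoxidase forms the epoxycarotenoids in the plastid, the NCED dioxygenases cleave them to xanthoxin in what is held to be the rate-limiting step, and xanthoxin dehydrogenase oxidises xanthoxin to abscisic aldehyde. An aldehyde oxidase completes the hormone, and FLACCA activates the molybdenum cofactor of that oxidase. The CYP707A cytochromes P450 hydroxylate ABA, the main route of its inactivation. Only transcripts were measured in these styles, not the hormone.

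The libraries held 10174283 to 14499207 reads on genes, as worked back from the RPKM steps (RPKM being reads scaled to gene length and to the reads counted in the library). RPKM is per length, so genes of a library can be set beside each other. Levels of the species were set side by side without a test, since by the study a smaller share of the S. chilense reads mapped. In bulk styles, fewer cells of a type and less RNA per cell cannot be told apart. Solyc10g007270, taken here as the pollen gene LAT52 although the sources used here do not annotate the ID, stood at 1275 to 3274 RPKM in SCUP and 1860 to 2213 RPKM in SCP. The same gene was at 160 to 488 RPKM in SIUP and 591 to 1086 RPKM in SIP, so this transcript was present in the unpollinated styles of both species. The carpel, petal and stamen identity genes were likewise fixed from general knowledge and are not annotated in the sources used here. The 2 IDs fixed as carpel identity genes were at 176 to 916 RPKM over all libraries. Of the 4 fixed as petal and stamen identity genes, 2 were at 75.5 to 461 RPKM and 2 at 0.507 to 3.87 RPKM. None of these 6 nor LAT52 was called changed in either species, where 6.89% of all genes tested in SC and 3.65% in SI were. In SI, UP and P did not overlap for LAT52 and Solyc08g067230, higher in P, and for Solyc02g084630, lower in P. Over all genes tested in SI, 32.0% did not overlap. In SC the groups overlapped for each of these genes.

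After self-pollination the xanthoxin dehydrogenase gene rose in SC and the breakdown gene CYP707A2 rose in SI. Neither call shows by itself that the other species responded otherwise, and the tests of that difference are given with each gene. In SC, 1 of the 9 members was called higher and none lower (limma on log2(RPKM + 0.5), Benjamini-Hochberg adjusted p under 0.05), where 6.89% of the 18913 genes tested were called, 4.66% higher and 2.23% lower. In SI, 1 of the 6 members above the filter was called higher and none lower, where 3.65% of 18334 genes were called, 2.50% higher and 1.15% lower. A gene entered a fit when 3 or more of its libraries reached 1 RPKM, and CYP707A3, CYP707A4 and the xanthoxin dehydrogenase gene did not reach it in SI. Unadjusted, 3 of 9 members in SC and 2 of 6 in SI had a p under 0.05, near the 27.7% and 26.6% of all genes tested. The median log2 fold change of the members was -0.08 in SC, beside -0.12 over all genes tested there, and 0.00042 in SI, beside -0.11. The groups did not overlap for 1 of the 9 members in SC, where 36.3% of all genes tested did not, and for 2 of 6 in SI, where 32.0% did not.

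**Figure D1:**
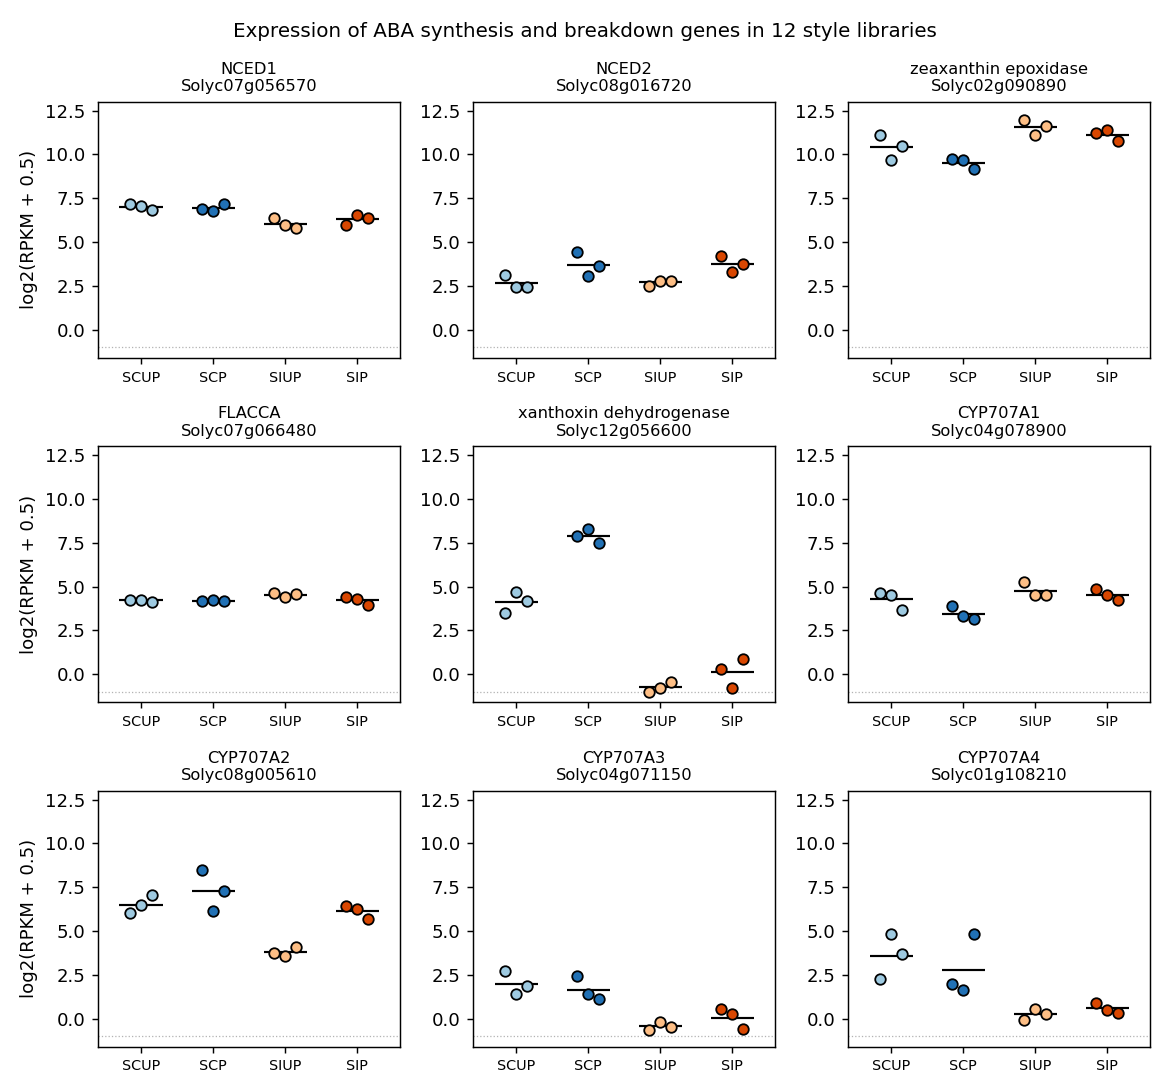
Expression of the 9 genes in each of the 12 libraries, as log2(RPKM + 0.5) on the vertical axis, by group on the horizontal axis. Points are libraries, in the order of their replicate numbers, horizontal bars are means of 3 and the dotted line is a value of 0 RPKM. The xanthoxin dehydrogenase gene separates SCP from the other groups and lies near the dotted line in SI, and CYP707A2 is low in SIUP only.

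NCED1 was the main NCED gene of the style and did not pass the test in either species. It was at 141, 133 and 114 RPKM in SCUP and at 119, 107 and 142 RPKM in SCP. Its SI values were 82.6, 62.9 and 56.0 RPKM in SIUP and 63.5, 93.0 and 83.2 RPKM in SIP. UP and P overlapped in both species, while each SC library was above each SI library. The mean was 129 ± 13.97 RPKM (SD, n = 3) in SCUP and 123 ± 17.9 RPKM in SCP, and 67.2 ± 13.8 RPKM in SIUP and 79.9 ± 15.0 RPKM in SIP. The log2 fold change was -0.08 (standard error 0.18, limma adjusted p = 0.824) in SC and 0.25 (standard error 0.20, adjusted p = 0.442) in SI. The gene took 94.4% to 96.4% of the summed NCED RPKM in SCUP and 78.1% to 90.8% in SIP.

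NCED2, a second dioxygenase gene of the same step, was lower and had higher means in P in both species. It was at 8.34, 5.00 and 4.98 RPKM in SCUP and at 20.8, 7.98 and 12.1 RPKM in SCP, and its groups overlapped because SCUP1 lay above SCP2. In SI it was at 5.21, 6.38 and 6.48 RPKM in SIUP and at 17.8, 9.40 and 12.9 RPKM in SIP, with each P library above each UP library. The log2 fold changes were nearly equal, at 1.03 (standard error 0.37) in SC and 1.05 (standard error 0.24) in SI, and neither passed the test (limma adjusted p = 0.131 and 0.0603). After quantile normalization the SI value passed at 0.0492, within a range over its alternatives of 0.0492 to 0.349. The difference between the responses was 0.02 (standard error 0.47, adjusted p = 0.992).

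The zeaxanthin epoxidase gene had by far the highest RPKM of the members. It was at 2241, 811 and 1438 RPKM in SCUP, at 849, 806 and 572 RPKM in SCP, at 3930, 2224 and 3150 RPKM in SIUP and at 2380, 2659 and 1753 RPKM in SIP. The means were lower in P in both species, but UP and P overlapped in each, and the log2 fold changes of -0.91 (standard error 0.39) in SC and -0.44 (standard error 0.25) in SI did not pass the test (limma adjusted p = 0.186 and 0.313). The steps of its RPKM values imply a length of 327 bp, the shortest among the members, where the others lie between 1083 bp and 2712 bp. The same reads over a longer gene model would give a lower RPKM, so its level was not added to that of the NCED genes below.

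FLACCA stood at nearly one level in SC and passed the test in neither species. It was at 18.4, 18.6 and 17.2 RPKM in SCUP and at 17.3, 18.5 and 17.4 RPKM in SCP. In SI it was at 23.9, 20.8 and 23.4 RPKM in SIUP and at 20.8, 19.3 and 14.9 RPKM in SIP. The SC groups overlapped almost fully, and in SI only SIP1 reached the UP range. The log2 fold changes were -0.02 (standard error 0.14, limma adjusted p = 0.936) in SC and -0.31 (standard error 0.15, adjusted p = 0.244) in SI, with 451 to 756 reads per library behind the values. The SC value turned slightly positive under upper-quartile scaling (0.0075) and quantile normalization (0.03).

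The xanthoxin dehydrogenase gene Solyc12g056600 had the largest log2 fold change of the 9 members in SC and the widest ratio of measured levels between the species. It was at 10.8, 25.1 and 17.7 RPKM in SCUP and at 238, 308 and 176 RPKM in SCP, so the lowest P library was far above the highest UP library. The log2 fold change was 3.76 (standard error 0.34, limma adjusted p = 0.00448), from a mean of 17.9 ± 7.15 RPKM (SD, n = 3) to 241 ± 66.1 RPKM, a ratio of 13.5. With this rise the gene went from sixth among the members in SCUP, where it overlapped CYP707A1, FLACCA and CYP707A4, to the next place after the epoxidase gene in SCP, where it overlapped CYP707A2. It was called in 16 of 17 alternatives, the exception being the unequal-variance test on RPKM (adjusted p range 0.000331 to 0.271). The study picked this gene on the same libraries, so its direction is not independent evidence.

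In S. chilense few reads were counted on the same ID. A low transcript level and poor mapping of S. chilense reads to the cultivated tomato genome cannot be told apart here. It was at 0, 0.0778 and 0.230 RPKM in SIUP and at 0.719, 0.0807 and 1.31 RPKM in SIP. These values rest on 0, 1 and 3 reads in SIUP and on 8, 1 and 16 reads in SIP, and the groups overlapped. Summed over the libraries and scaled to depth, the ratio of SIP to SIUP was 6.76, with an exact 95% interval of 2.34 to 26.7 that covers counting error only. Without the filter the SI response was not called (limma adjusted p = 0.273). The limma interaction, SI minus SC, was -2.89 in log2 (standard error 0.58, adjusted p = 0.0428), and 1 of the 9 members was called in that fit, in the lower direction, where 1.04% of 20277 genes were called, 0.784% lower and 0.252% higher. The gene passed the filter of that fit through its SC libraries alone, and its SI values lie at the floor, so this p does not show that the responses differed. The value moved with the treatment of low values, to -2.07 with a pseudocount of 0.1 (adjusted p = 0.416) and -1.59 by voom on the recovered reads (adjusted p = 0.691). It passed in 7 of 21 alternatives (adjusted p range 0.0117 to 0.691). It was also lost without the filter (0.0588) and in each fit without SCUP1, SCUP3, SCP1, SCP2, SCP3, SIUP1, SIUP2, SIUP3, SIP1 or SIP2, at adjusted p values of 0.0536 to 0.129.

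**Figure D2:**
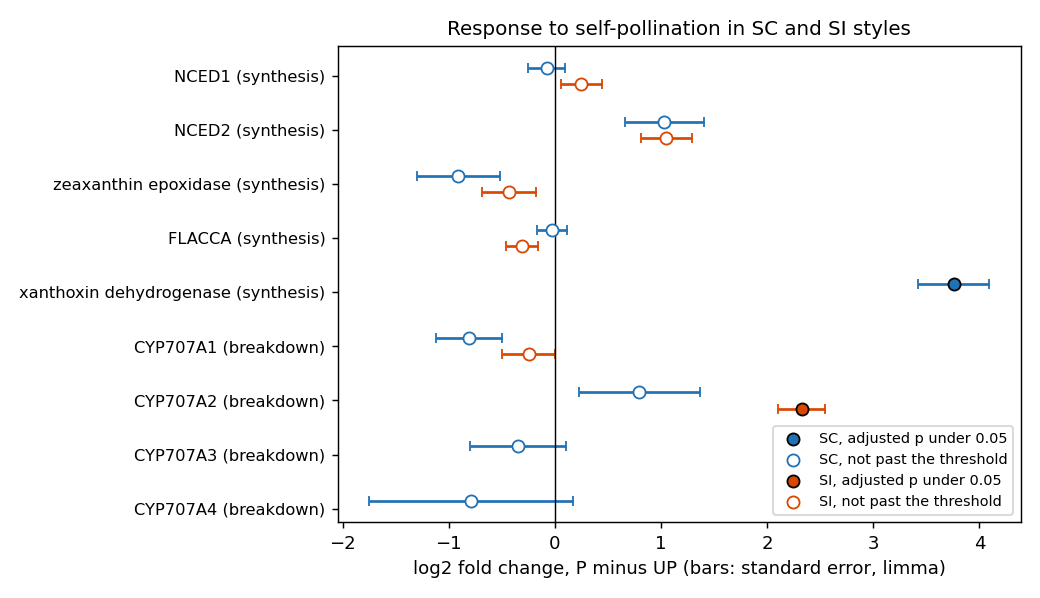
Log2 fold change from UP to P (horizontal axis) of each gene in SC (blue) and SI (orange), with the standard error of limma as bars. Filled points passed an adjusted p of 0.05, and genes with no orange point were below the filter in SI. The filled points are the xanthoxin dehydrogenase gene at 3.76 in SC and CYP707A2 at 2.33 in SI.

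CYP707A2 was the breakdown gene that rose in SI. It was at 13.04, 11.5 and 16.3 RPKM in SIUP and at 85.6, 76.9 and 51.4 RPKM in SIP, with a wide gap between the groups. The mean went from 13.6 ± 2.42 RPKM (SD, n = 3) to 71.3 ± 17.8 RPKM, a ratio of 5.23 (log2 2.33, standard error 0.22, limma adjusted p = 0.00591). The call held in 16 of 17 alternatives and was lost by the unequal-variance test on RPKM (adjusted p range 0.00553 to 0.280). The study also picked this gene on these libraries. LAT52 had higher values in SIP than in SIUP as well, with no overlap (log2 fold change 1.65, standard error 0.47, adjusted p = 0.0941), and its part in the result was not tested.

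In SC, CYP707A2 was already high in the SCUP libraries. It was at 63.9, 89.0 and 132 RPKM in SCUP, so that the SIP libraries stood near the SCUP range, with SIP3 below it. LAT52 was also high in SCUP, at 1275 to 3274 RPKM, beside 591 to 1086 RPKM in SIP. The part of pollen in the SCUP level of CYP707A2 was not tested. After self-pollination of SC, CYP707A2 was at 360, 70.9 and 155 RPKM, and SCP2 lay within the UP range. The log2 fold change of 0.80 (standard error 0.57, limma adjusted p = 0.411) rested largely on SCP1, without which it was 0.21 (adjusted p = 0.818). The interaction was 1.53 (standard error 0.68, adjusted p = 0.374, unadjusted p = 0.0446) and passed in none of 21 alternatives. The rise of CYP707A2 in SI and the lack of a call in SC are therefore not shown to differ.

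CYP707A1 had lower P means in both species and passed the test in neither. It was at 24.3, 22.1 and 12.2 RPKM in SCUP and at 14.2, 9.71 and 8.31 RPKM in SCP. In SI it was at 37.5, 22.9 and 22.6 RPKM in SIUP and at 28.2, 22.4 and 18.05 RPKM in SIP. Single libraries set the overlap, with SCUP3 below SCP1 and SIP1 above SIUP2 and SIUP3. The log2 fold changes were -0.81 (standard error 0.31, limma adjusted p = 0.153) in SC and -0.25 (standard error 0.25, adjusted p = 0.545) in SI.

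CYP707A3 and CYP707A4 were measured mainly in SC. CYP707A3 was at 6.13, 2.17 and 3.16 RPKM in SCUP and at 4.90, 2.11 and 1.73 RPKM in SCP, a response of -0.35 in log2 (standard error 0.45, limma adjusted p = 0.670). In SI it was at 0.151 to 0.375 RPKM in SIUP and 0.158 to 0.953 RPKM in SIP, on 10 and 22 reads in all, with reads in each of the 6 libraries. The depth-scaled ratio of SIP to SIUP reads was 2.38 (exact 95% interval 1.08 to 5.63, counting error only), and the groups overlapped in both species. CYP707A4 was the most uneven member. It was at 4.25, 27.7 and 12.6 RPKM in SCUP and at 3.45, 2.57 and 27.6 RPKM in SCP, so that 1 library of each group held a value several times above the lowest. Its log2 response of -0.79 (standard error 0.96, adjusted p = 0.645) moved between -1.80 and -0.18 over the alternatives. The high libraries, SCUP2 and SCP3, also had the highest LAT52 values of their groups, at 3274 and 2213 RPKM. The LAT52 values of SCP lay close together, however, with 2061 RPKM in SCP2, where CYP707A4 was lowest. The part of pollen in these values was not tested. In SI CYP707A4 was at 0.449 to 0.965 RPKM in SIUP and 0.782 to 1.37 RPKM in SIP, on 29 and 38 reads in all, a ratio of 1.42 (exact 95% interval 0.852 to 2.38, counting error only).

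The gene with most of the summed CYP707A RPKM was not the same in SIUP and SCUP. In SIUP, CYP707A1 made up 56.7% to 73.3% of the summed CYP707A RPKM and CYP707A2 25.5% to 40.9%. In SIP, CYP707A2 made up 73.0% to 76.2% and CYP707A1 22.2% to 25.7%. The order of the 2 genes was thus opposite in all 3 libraries of SIUP and all 3 of SIP. In SC, CYP707A2 led in every library, with 63.1% to 82.5% in SCUP and 80.5% to 94.1% in SCP. CYP707A4 reached 19.7% in SCUP2 and 14.3% in SCP3 but at most 2.70% in SI, and CYP707A3 stayed at or below 6.22% in all libraries. These shares are a description and carry no test. Between the species they also depend on how well S. chilense reads mapped to each of these genes, which was not tested.

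**Figure D3:**
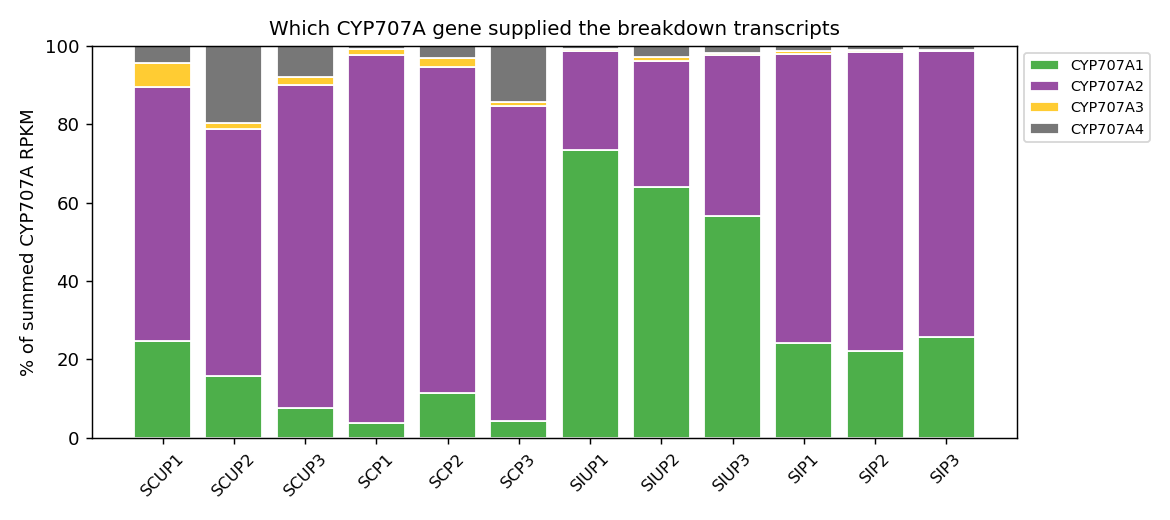
Share of each CYP707A gene in the summed CYP707A RPKM (vertical axis, percent) of each library (horizontal axis). CYP707A1 is the largest share in the 3 SIUP libraries, at 56.7% to 73.3%, and CYP707A2 in the other 9.

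Synthesis was weighed against breakdown in each library as the log2 ratio of the summed RPKM of NCED1 and NCED2 to that of the 4 CYP707A genes. The members were chosen with results known, so the ratio is described without a test. In SIUP the NCED sum exceeded the CYP707A sum in each library, by ratios of 1.72, 1.94 and 1.57. In SIP the ratios were 0.7003, 1.01 and 1.37, each below each SIUP library. The log2 ratio went from 0.80 ± 0.15 (SD, n = 3) in SIUP to -0.01 ± 0.48 in SIP. Both sums had higher means in P. The NCED sum went from 73.2 ± 13.1 RPKM to 93.3 ± 10.8 RPKM and the CYP707A sum from 42.2 ± 7.97 RPKM to 95.8 ± 23.3 RPKM. The higher NCED sum moved the ratio up, so the fall of the ratio in SI came from the CYP707A sum, in which CYP707A2 was the member called higher.

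In SC no shift of this ratio of sums stood out from the spread of the libraries. The ratios were 1.52, 0.977 and 0.742 in SCUP and 0.365, 1.35 and 0.801 in SCP, and the log2 ratio was 0.05 ± 0.52 in SCUP and -0.45 ± 0.95 in SCP. The NCED sum was 135 ± 15.5 RPKM in SCUP and 136 ± 19.7 RPKM in SCP. The CYP707A sum was 133 ± 31.5 RPKM in SCUP and 220 ± 150 RPKM in SCP, where SCP1 alone reached 382 RPKM. Without SCP1 the mean log2 change in SC was 0.01, against -0.49 with it. The ratio leaves out the xanthoxin dehydrogenase gene, the synthesis gene that rose in SC. With all 5 synthesis genes summed, the change was -0.97 in SC and -1.58 in SI, and both sums were then dominated by the zeaxanthin epoxidase gene. Where the mean log2 values of NCED1 and NCED2 and of the 4 CYP707A genes took the place of their sums, so that low genes weighed as much as high ones, the change was 0.77 in SC and -0.0754 in SI. By that measure each SCP library (1.31 to 1.79) lay above each SCUP library (0.45 to 1.24), while the SI groups overlapped. Which species shifted, and in which direction, thus depended on how the members were combined.

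**Figure D4:**
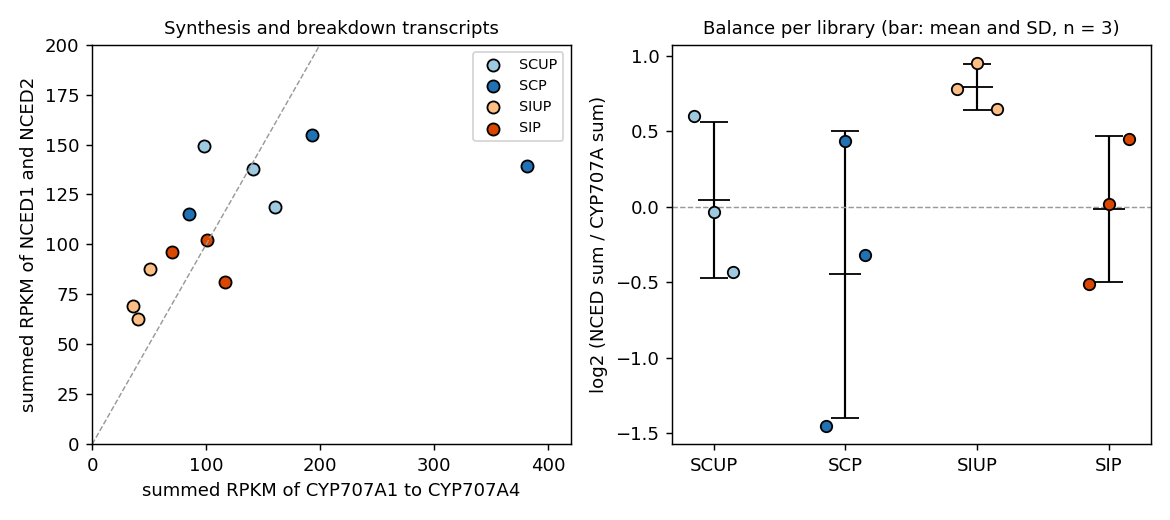
Left, the summed RPKM of NCED1 and NCED2 (vertical axis) against that of the 4 CYP707A genes (horizontal axis) in each library, with a dashed line of equal sums. Right, the log2 ratio of the sums by group, with points for libraries and bars for the mean and SD of 3. All SIUP libraries lie on the NCED side of equality, at log2 ratios of 0.65 to 0.96, and 1 SCP library lies far on the CYP707A side, at -1.45.

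Carotenoid steps ahead of zeaxanthin epoxidase were followed through 14 gene IDs, an assignment from general knowledge of the tomato genome that the sources used here do not annotate. All 14 were tested and none was called in SC, in SI or for the difference (limma adjusted p), with 4, 5 and 0 at an unadjusted p under 0.05, where 27.7%, 26.6% and 12.9% of all genes tested had one. Voom on the recovered reads and the unequal-variance test on RPKM also called none, while a fit of all 12 libraries called 3 in SC, where 18.1% of all genes were then called, and 3 were called in SI without SIUP1, where 12.7% were. Their median log2 fold change was -0.44 in SC and -0.33 in SI, beside -0.12 and -0.11 over all genes tested, and 11 of 14 in SC and 10 of 14 in SI were negative, where 61.3% and 62.8% of all genes were.

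The ABA signalling genes that the study names by ID were 5, and they were picked on the same libraries, so the direction of any of them is no independent evidence. PYL6-like (Solyc06g050500), an ABA receptor, rose in SC from 5.34, 6.62 and 6.87 RPKM to 18.1, 30.7 and 25.5 RPKM (log2 fold change 1.87, standard error 0.23, limma adjusted p = 0.00958). It held the values 1.41, 2.52 and 2.57 RPKM in SIUP and 2.69, 2.42 and 1.47 RPKM in SIP. SI minus SC, the responses were -1.85 apart (standard error 0.38, adjusted p = 0.0458), and this passed in 6 of 21 alternatives (range 0.0245 to 0.167). SAPK3-like (Solyc08g077780), a kinase of the SnRK2 family that acts after the receptor, rose in SI from 17.6, 14.1 and 14.4 RPKM to 42.2, 30.4 and 30.2 RPKM (log2 fold change 1.12, standard error 0.17, adjusted p = 0.0236). That call was lost without SIUP2, SIUP3, SIP1, SIP2 or SIP3, at adjusted p values of 0.0530 to 0.112, with all 12 libraries fitted (0.0751) and by the unequal-variance test (0.289). In SC it had values of 34.7, 38.1 and 25.3 RPKM in SCUP and 149, 72.6 and 59.0 RPKM in SCP, with no overlap, and the log2 fold change was 1.41 (standard error 0.36, adjusted p = 0.0633), which passed with all 12 libraries fitted (0.0101). The difference of its responses was -0.29 (adjusted p = 0.852). PYL8-like (Solyc03g007310), a receptor, the SAPK7-like kinase gene (Solyc05g056550) and the bZIP transcription factor gene (Solyc10g076920) passed the test in neither species, the kinase gene being below the filter in SI. Their log2 fold changes in SC were 0.59, -0.78 and -0.85 (limma adjusted p = 0.555, 0.101 and 0.114). In SI they were -1.11 for PYL8-like and -0.83 for the bZIP gene (adjusted p = 0.118 and 0.162). Each P library lay below each UP library for the bZIP gene in both species, for SAPK7-like in SC and for PYL8-like in SI. Of the 5 signalling genes, 4 did not overlap in SC, and 3 of the 4 tested did not in SI. Over all genes tested, 36.3% and 32.0% did not overlap, but these 5 were picked on the same libraries.

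For 3 members the genes with the most similar profile over the 12 libraries were sought, by Pearson correlation of log2(RPKM + 0.5), which is given without a p because libraries of a group share their condition. Nearest to NCED1 were Solyc12g056560, Solyc06g082780 and Solyc04g074830 (r of 0.948 to 0.958), all with higher means in both SC groups than in both SI groups. Nearest to the xanthoxin dehydrogenase gene were Solyc09g066030, Solyc05g011960 and Solyc12g096750 (r of 0.985 to 0.988). Of these, Solyc12g096750 was the only one at a like level, with means of 39.6 RPKM in SCUP, 356 RPKM in SCP, 1.499 RPKM in SIUP and 6.59 RPKM in SIP. Nearest to CYP707A2 were Solyc09g013150, Solyc10g011740 and Solyc10g083970 (r of 0.970 to 0.972). The last, which the study names as an S-adenosylmethionine synthase gene, an enzyme ahead of ethylene in that pathway, had means of 98.5 RPKM in SIUP, 255 RPKM in SIP, 357 RPKM in SCUP and 464 RPKM in SCP, an order of the groups like that of CYP707A2.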

How the data were processed

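The authors deposited RPKM values per gene, made from read pairs filtered with Trimmomatic 0.32, aligned to the tomato genome with TopHat2 and counted with HTSeq. Which genome build and annotation were used is not given in the sources used here, nor is the handling of reads shared by related genes, so NCED and CYP707A members may share reads. The authors' own log2 ratios and p-values were not used. Left out were 7 genes with error codes. Whole reads were recovered from the RPKM steps for all 26562 genes above 0 in at least 2 libraries (tolerance 1e-06). Genes that reached 1 RPKM in 3 or more fitted libraries were fitted as log2(RPKM + 0.5) with limma 3.58.1 (intensity trend) in R 4.3.3, each species by itself and the interaction over 12 libraries, with Benjamini-Hochberg adjustment over all genes tested. A fold change on this scale understates that of low genes. The procedure was tested on simulated data. Other values came from Python 3.11.15. The members, lists and named genes (the members, 5 signalling genes and the 3 nearest profiles of 3 members) were chosen with earlier results of these data known. The reference table matched none of the IDs, so the planned lists of further family members, other pollen markers and promoter motifs were not used. Of 3 IDs fixed from general knowledge as ABA-inducible, 2 were tested in each species and none was called, where 6.89% of all genes tested in SC and 3.65% in SI were. For 1 of them, Solyc04g071610, each P library lay below each UP library in both species. Over all genes tested, 36.3% in SC and 32.0% in SI did not overlap. Alternatives were other scalings, pseudocounts, filters and tests, a replicate block, all 12 libraries and each library left out.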

Additional observations from a re-analysis of the deposited data

Results flagged for a closer look

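A limma interaction over the 12 libraries passed the threshold for Solyc12g056600, the xanthoxin dehydrogenase gene (log2 difference SI minus SC of -2.89, adjusted p = 0.0428). It entered that fit through SC alone and rests on 0 to 16 reads per library in SI, so a difference of the responses is not shown. All 3 SCP libraries were above all 3 SCUP libraries, and the SI groups overlapped near 0. The interaction also passed for the receptor gene Solyc06g050500 (PYL6-like), at -1.85 (adjusted p = 0.0458), with all 3 SCP libraries above SCUP and overlapping groups in SI. Both differences are close to the threshold and each was lost in most alternatives. Groups of 3 libraries are too small for a test of single outlying libraries.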

How the results depend on the processing

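Each called rise within a species of a member within a species was lost in no alternative but the unequal-variance test, where 0 members were called in SC and 0 in SI, and 1 and 3 genes of the whole table. Quantile normalization called 2 members in SI. For the difference of responses 0 members were called with a pseudocount of 0.1, without the filter, with a replicate block and by voom. With a library left out the called members were 1 in SC and 1 in SI throughout and 0 to 1 for the difference, and the whole-table counts (main 1303, 670 and 210) ran from 256 to 1213 in SC, from 94 to 2311 in SI and from 32 to 389 for the difference. The SC count was 3674 with all 12 libraries fitted. For the difference it was 107 with a pseudocount of 0.1, 139 with a filter of 5 RPKM and 28 by voom. With the replicate block the counts were 1099 in SC, 126 in SI and 125 for the difference, 1 carotenoid gene was called in SI, the interaction of Solyc12g056600 was lost (adjusted p = 0.0521) and the rise of SAPK3-like (Solyc08g077780) in SC passed (0.0383). The sources used here do not say whether replicate numbers pair the libraries, so the main fits used no pairing. Deviations of same-numbered libraries had correlations between -0.07 and 0.36 in SC and between -0.21 and 0.16 in SI. Not every library correlated best with its own number, but deviations from means of 3 libraries cannot settle whether the numbers pair them. The change of the synthesis to breakdown ratio depended on how members were combined. As a mean of log2 values in place of the sum it was 0.77 in SC, against -0.49, and -0.0754 in SI, against -0.81. With all 5 synthesis genes it was negative in both species, at -1.58 in SI, in a sum dominated by the zeaxanthin epoxidase gene. With a library left out, the change of the main ratio ran from -0.93 to 0.01 in SC and from -1.04 to -0.56 in SI. The SI values of Solyc12g056600, CYP707A3 and CYP707A4 rest on at most 16, 11 and 16 reads per library, so they are imprecise.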
